A study of Mus musculus with 8 samples.

Results

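The genes described here are 10 regulators of the unfolded protein response and the integrated stress response. They comprise the endoplasmic reticulum (ER) sensors Eif2ak3, Ern1 and Atf6, the transcription factors Atf4, Xbp1 and Ddit3, and the Atf4-linked genes Asns, Trib3, Chac1 and Ppp1r15a. They were found by gene symbol among the 19505 genes named on an Affymetrix mouse array, with 1 probe set per gene, the one with the highest mean over 8 arrays. All 10 members had a probe set, and 1 of them, Ddit3, had 2. The arrays came from luminal cells of the mammary gland of mice on day 15 of pregnancy, sorted by flow cytometry after enzymatic digestion, with 500 pg of total RNA amplified per sample. In 4 samples the cells were labelled a3a6KO, which names the integrin chains alpha 3 and alpha 6, receptors for the laminins of the basement membrane, and in 4 they were labelled control. The titles of the a3a6KO samples also carry the word Ctrl, so the groups follow the cell subtype label. The labels name no alleles, Cre driver, control genotype, strain or pooling of animals. The comparison asks whether secretory cells labelled as lacking both chains carried a different level of stress response transcripts late in pregnancy.

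A cell that secretes much protein loads its ER heavily, and misfolded protein there is sensed by 3 membrane proteins. Eif2ak3 (PERK) phosphorylates the initiation factor eIF2, which slows translation in general while favouring translation of the Atf4 mRNA. Ern1 (IRE1) splices the Xbp1 mRNA into the form that encodes the active factor, and Atf6 is cut in the Golgi to release its own transcription factor. Other eIF2 kinases answer amino acid shortage, heme shortage and double-stranded RNA, and their common output through Atf4 is called the integrated stress response. In the mammary gland, Xbp1 is known for its part in building the ER of the milk-secreting alveolar cell. Much of this regulation acts on translation, splicing and protein cleavage, which an array of total transcript level does not read. On these arrays spliced and unspliced Xbp1 were summed.

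Of the 10 members, 9 had an entry in the RefSeq promoter table (GRCm38.p6), and a search of each window of 300 bases, with 250 bases before and 50 after the start, found letter matches in 4. The searched motifs, on both strands, were the C/EBP-ATF element TGATGNAA to which Atf4 binds with C/EBP partners, 2 ER stress elements (CCAAT followed after any 9 bases by CCACG, and ATTGG followed after any 1 base by CCACG), the Xbp1-type element TGACGTGG and the cyclic AMP element TGACGTCA. The C/EBP-ATF letters were in the windows of 3 members, Asns, Trib3 and Chac1, and in 3.97% of all 32851 windows. The cyclic AMP letters were in 1 member, Ppp1r15a, and in 1.79% of all windows. The other motifs were in 0 members, against 0.119%, 0.0365% and 0.676% of all windows in the order given. No 2 matches overlapped. The stretches are shown for these 4 members because they held a match, and the levels of all members are compared below. Each is written 5′ to 3′ on the strand of the gene, with the match in capitals, and is the 250 bases before the start except for Trib3, where 30 bases around a match after the start are given. Asns lies on chromosome 6 (chr6:7693210-7693459, minus strand), Trib3 on chromosome 2 (chr2:152344028-152344057, minus strand), Chac1 on chromosome 2 (chr2:119350992-119351241, plus strand) and Ppp1r15a on chromosome 7 (chr7:45526269-45526518, minus strand). Trib3 and Chac1 carry the letters on the other strand.
Asns: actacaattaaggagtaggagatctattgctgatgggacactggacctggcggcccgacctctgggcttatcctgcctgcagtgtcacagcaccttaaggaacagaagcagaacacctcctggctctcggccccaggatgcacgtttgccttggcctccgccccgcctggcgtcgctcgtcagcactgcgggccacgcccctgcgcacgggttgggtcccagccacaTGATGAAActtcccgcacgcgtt
Trib3: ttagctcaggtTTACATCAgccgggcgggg
Chac1: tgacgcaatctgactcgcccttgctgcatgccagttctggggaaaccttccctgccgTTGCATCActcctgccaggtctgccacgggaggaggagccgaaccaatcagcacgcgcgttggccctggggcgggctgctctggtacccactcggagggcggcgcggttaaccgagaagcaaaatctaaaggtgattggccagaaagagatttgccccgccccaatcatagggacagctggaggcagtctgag
Ppp1r15a: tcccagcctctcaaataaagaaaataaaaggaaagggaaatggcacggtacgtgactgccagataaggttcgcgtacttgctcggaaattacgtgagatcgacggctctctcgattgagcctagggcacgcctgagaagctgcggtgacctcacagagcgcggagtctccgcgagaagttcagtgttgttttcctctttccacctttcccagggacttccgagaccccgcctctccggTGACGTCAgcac

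The deposited values are log2 RMA levels, so a difference of 1 is a doubling. An array's background was taken as the 95th percentile of its 5222 intron control sets, which lay between 6.38 and 6.90. On single arrays 2244 to 3229 of the 19505 genes exceeded background, so most genes lay below it. A lower level may still be real, but its differences are uncertain in size. The labels were checked on the targeted genes. Itga6 had levels of 5.95, 3.65, 8.21 and 7.85 on the a3a6KO arrays 1 to 4, against 8.83, 8.73, 9.14 and 8.80 on the control arrays 1 to 4. Itga3 had 5.11, 4.34, 5.55 and 5.60 on the a3a6KO arrays, against 6.72, 6.30, 5.37 and 7.27 on the control arrays. Itga3 exceeded background on 0 a3a6KO arrays and 1 control array. The mean log2 difference, a3a6KO minus control, was -2.46 for Itga6 and -1.265 for Itga3. Neither targeted gene passed the limma test used below (adjusted p = 0.944 for each). The Itga6 groups did not overlap, but a3a6KO 3 and 4 lay nearer to the control arrays than a3a6KO 1 and 2 did. Differences of the members are therefore also given without these arrays where that turns them or moves them by more than 1.5 times. For genes of the wider lists and for list medians such values are given for some only, and those without one need not be stable. Without these arrays the difference of Fos went from -0.47 to -0.06 and that of Slc7a3 from 0.63 to 0.043. That of Srprb went from -0.41 to -0.915, and the median of the ER sensors turned from 0.265 to -0.125. All 9 luminal markers, among them Krt8, Epcam and Csn2, exceeded background on every array. Basal markers were lower in a3a6KO in 10 of 10 genes, with list scores (mean log2 level relative to each gene's mean) of -1.08 to 0.69 in a3a6KO and -0.30 to 1.40 in control. Of leukocyte and plasma cell markers, 4 of 5 and 5 of 6 exceeded background on no array, as did 4 of 5 for fibroblasts, 4 of 5 for adipocytes and 2 of 6 for endothelium, while the adipocyte marker Fabp4 exceeded it on every array. In these sorted cell pools, fewer cells of a type and less RNA per cell cannot be told apart.

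No regulator of either response passed the test between a3a6KO and control. Most mean differences were small, but some 95% intervals were wide, from 0.53-fold to 3.27-fold for Atf6 and from 0.55-fold to 2.62-fold for Eif2ak3. Of the 10 members 0 were called by limma (Benjamini-Hochberg over all genes, threshold 0.05), and so were 0% of the 19505 genes tested. The means of 8 members were lower in a3a6KO, where 50.4% of all genes were lower, and the median log2 difference (a3a6KO minus control, here and below) was -0.089 over the members and -0.0025 over all genes. An unadjusted limma p under 0.05 was found for 1 member, Asns, and for 1000 genes (5.13%). The groups did not overlap in 0 members and in 573 genes (2.94%). In 9 of the 10 members the difference was smaller than 1.5-fold, with Ddit3 taken by its brighter set. The second Ddit3 set differed by 1.69-fold. The size of a difference, disregarding sign, had a median of 0.19 over the members and 0.18 over all genes. A missed call does not show equal levels, and 95% intervals are given for the members. Exact permutation tests of single genes used the 70 assignments of arrays to groups and cannot give a two-sided p below 0.0286.

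**Figure D1:**
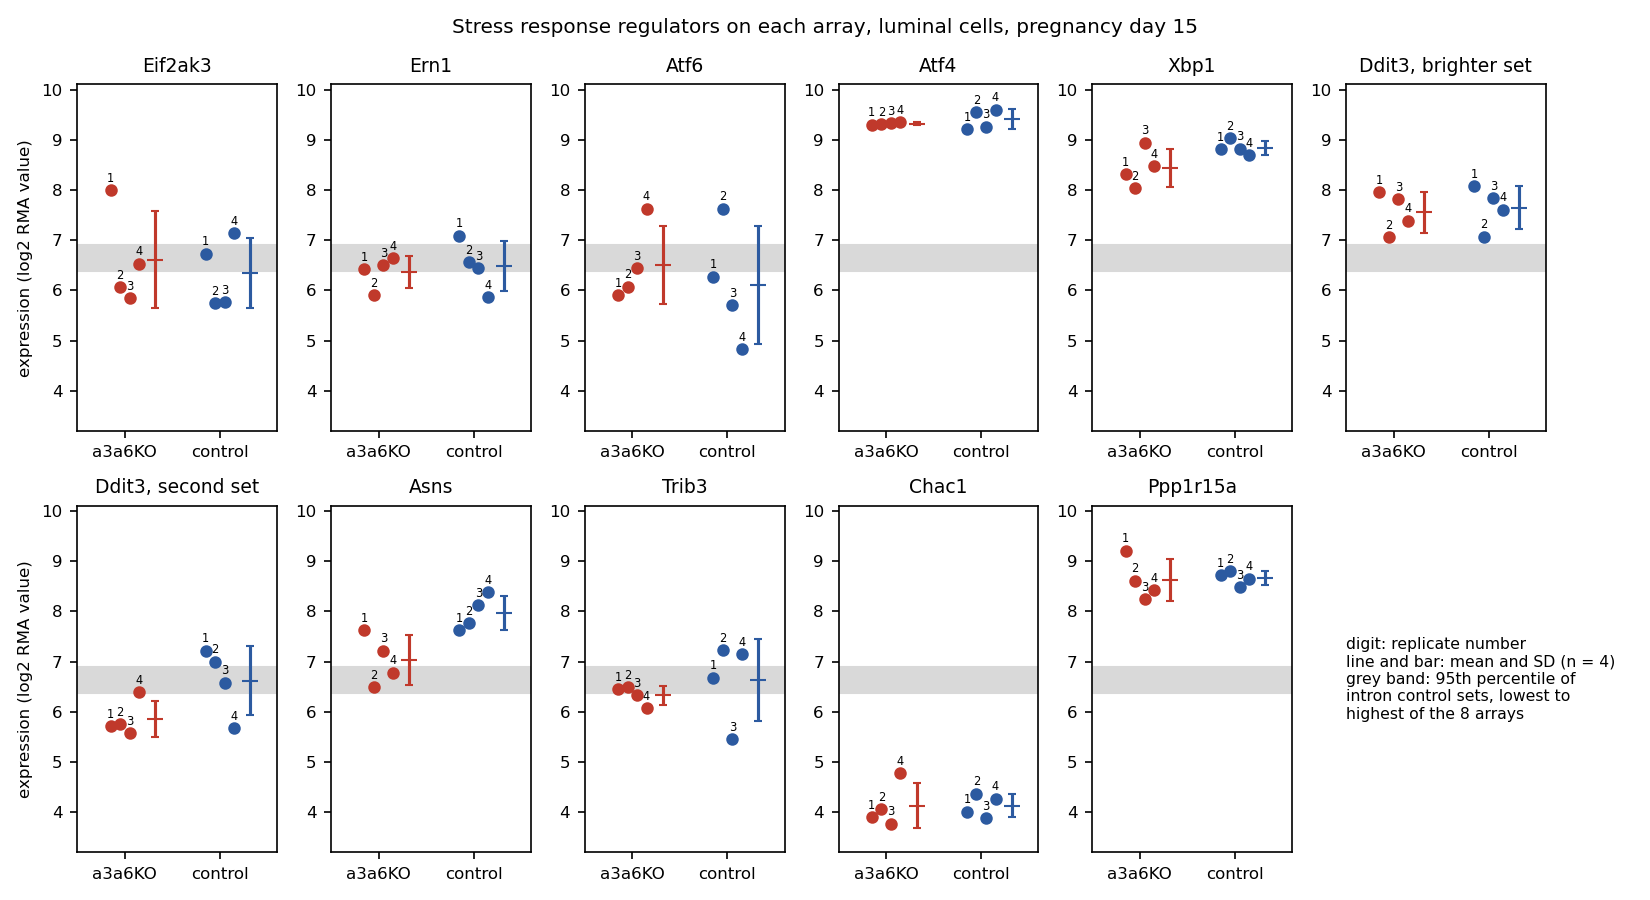
Expression (log2 RMA value, vertical axis) of the 10 regulators, with both probe sets of Ddit3, on the 4 a3a6KO arrays (left in each panel, red) and the 4 control arrays (right, blue). Digits are replicate numbers, the line and bar are the mean and SD (n = 4), and the grey band spans the background levels of the 8 arrays, from 6.38 to 6.90. Atf4, Xbp1, Ppp1r15a and the brighter Ddit3 set lie above the band on every array, and Chac1 lies below it.

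The 3 ER stress sensors were measured near background, and the spread between arrays of the same group was wide for Eif2ak3 and Atf6. Eif2ak3, the PERK kinase, had log2 levels of 8.0, 6.06, 5.85 and 6.53 on the a3a6KO arrays 1 to 4, against 6.73, 5.74, 5.77 and 7.14 on the control arrays 1 to 4. Its highest value, on a3a6KO 1, stood alone, and the other a3a6KO values lay within the control range. The difference was 0.27 (SE 0.499, 95% interval -0.86 to 1.39, limma adjusted p = 0.978), -0.20 without a3a6KO 1 and 0.685 without a3a6KO 3 and 4.
Ern1, the IRE1 kinase and endonuclease, had 6.42, 5.91, 6.50 and 6.64 on the a3a6KO arrays, against 7.09, 6.56, 6.44 and 5.86 on the control arrays. All 4 a3a6KO values lay inside the control range. The difference was -0.12 (SE 0.275, 95% interval -0.74 to 0.50), and 0.081 without control 1 or 0.033 without a3a6KO 2, against -0.32 without a3a6KO 3 and 4.
Atf6, the membrane-bound transcription factor, had 5.90, 6.07, 6.44 and 7.63 on the a3a6KO arrays, against 6.27, 7.63, 5.71 and 4.83 on the control arrays. Both groups shared the top value of 7.63, and the lowest value was on control 4. The difference was 0.40 (SE 0.582, 95% interval -0.91 to 1.71), -0.027 without control 4 and -0.12 without a3a6KO 3 and 4. Pooled over both groups, the within-group SD of Atf6 was 0.997, larger than in 97.0% of genes or equal to it, that of Eif2ak3 was 0.85, at 94.1%, and that of Ern1 was 0.42, at 65.7%.

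Atf4 transcript, whose product drives the integrated stress response, was nearly the same on every a3a6KO array. Its log2 levels were 9.30, 9.31, 9.33 and 9.35 on the a3a6KO arrays 1 to 4, against 9.21, 9.55, 9.26 and 9.60 on the control arrays 1 to 4. The a3a6KO values all lay within the control range, with an SD of 0.022 in a3a6KO and 0.20 in control. The mean was 9.32 in a3a6KO and 9.405 in control, a ratio of 0.944 (95% interval 0.740 to 1.21), in limma a difference of -0.0825 (SE 0.156, adjusted p = 0.978). The within-group SD of Atf4, 0.14, was in the lowest 4.64% of all genes.

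Xbp1, the factor activated by Ern1, was lower in a3a6KO on 3 of 4 arrays. Its log2 levels were 8.32, 8.03, 8.94 and 8.47 on the a3a6KO arrays 1 to 4, against 8.81, 9.03, 8.82 and 8.69 on the control arrays 1 to 4. The a3a6KO arrays 1, 2 and 4 lay below every control array, and a3a6KO 3 lay above 3 of the 4. The mean was 8.44 ± 0.38 in a3a6KO and 8.84 ± 0.14 in control (SD, n = 4), and the difference of -0.40 (SE 0.211, 95% interval -0.87 to 0.078) did not pass (limma adjusted p = 0.944, exact permutation p = 0.114). It was -0.56 without a3a6KO 3, -0.66 without a3a6KO 3 and 4, and -0.26 without a3a6KO 2. a3a6KO 3 was also the a3a6KO array with the highest basal marker score (0.69, against -1.08 to -0.73 on the other 3), and with that score as a covariate the Xbp1 difference was -0.18 (SE 0.24). The part of basal cells in it was not tested further.

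Ddit3, which encodes CHOP, a factor linked to death of stressed cells, gave different pictures from its 2 probe sets. The brighter set, used by the rule, has an identifier that marks it as unmapped to a chromosome. It had log2 levels of 7.95, 7.06, 7.81 and 7.39 on the a3a6KO arrays 1 to 4, against 8.07, 7.07, 7.84 and 7.61 on the control arrays 1 to 4. The groups spanned nearly the same range, and the difference was -0.095 (SE 0.272, limma adjusted p = 0.982), 0.046 without control 1, 0.069 without a3a6KO 2 and -0.29 without control 2.
The second set, which the array places on chromosome 10, had 5.72, 5.75, 5.58 and 6.39 on the a3a6KO arrays, against 7.22, 7.0, 6.58 and 5.67 on the control arrays. Control 1, 2 and 3 lay above every a3a6KO array, and control 4 lay among them. The difference of this set was -0.76 (SE 0.339, 95% interval -1.52 to 0.0056, limma adjusted p = 0.943, exact permutation p = 0.114). It exceeded background on 0 a3a6KO arrays and 3 control arrays. The promoter entry of Ddit3 also lies on chromosome 10, as this set does. The brighter set has no such placement, and which set reports the Ddit3 transcript better was not tested.

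Asns, which makes asparagine and is a well known target of Atf4, had the largest difference of the members and the smallest p. Its log2 levels were 7.63, 6.49, 7.22 and 6.78 on the a3a6KO arrays 1 to 4, against 7.63, 7.76, 8.12 and 8.38 on the control arrays 1 to 4. a3a6KO 2, 3 and 4 lay below every control array, and a3a6KO 1 equalled the lowest control. The mean was 7.03 ± 0.50 in a3a6KO and 7.97 ± 0.34 in control (SD, n = 4), a ratio of 0.520 (95% interval 0.337 to 0.803). The difference of -0.94 (SE 0.278) had an unadjusted limma p of 0.00762, rank 150 of 19505 genes, an adjusted p of 0.944 and an exact permutation p of 0.0571. Leaving out single arrays gave -1.14 to -0.76, and the difference was -0.91 without a3a6KO 3 and 4. With the basal marker score as a covariate it was -0.75 (SE 0.34).

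The other Atf4-linked members differed by less than 0.3 on the log2 scale. Trib3, a pseudokinase that restrains Atf4 and Ddit3, had log2 levels of 6.45, 6.49, 6.33 and 6.07 on the a3a6KO arrays 1 to 4, against 6.68, 7.23, 5.46 and 7.15 on the control arrays 1 to 4. Control 3 was the lowest array of all and the other 3 controls were above every a3a6KO array. The Trib3 difference was -0.295 (SE 0.363, 95% interval -1.11 to 0.52), -0.69 without control 3, -0.095 without control 2, -0.12 without control 4 and -0.16 without a3a6KO 3 and 4. Trib3 exceeded background on 0 a3a6KO arrays and 2 control arrays.
Chac1, which degrades glutathione, had 3.90, 4.06, 3.77 and 4.78 on the a3a6KO arrays, against 4.01, 4.37, 3.88 and 4.27 on the control arrays, all below background. Its difference was -0.0050 (SE 0.243), or -0.15 without a3a6KO 3 and 4, which does not tell whether it changed.
Ppp1r15a (GADD34), the phosphatase subunit that reverses eIF2 phosphorylation, had 9.21, 8.61, 8.25 and 8.42 on the a3a6KO arrays, against 8.72, 8.80, 8.48 and 8.65 on the control arrays. a3a6KO 1 was highest and a3a6KO 3 and 4 were lowest of all arrays, with the controls between. The Ppp1r15a difference was -0.040 (SE 0.222, 95% interval -0.54 to 0.46), and 0.25 without a3a6KO 3 and 4. The difference between Asns and each of these genes was not tested.

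**Figure D2:**
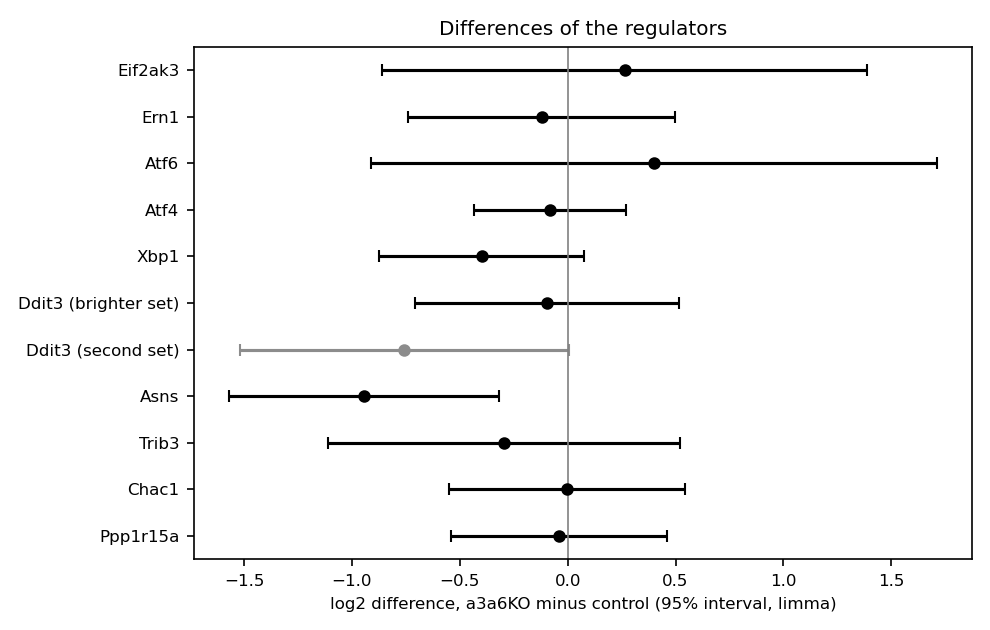
Log2 difference of a3a6KO minus control (horizontal axis) for each regulator, with its 95% interval from limma, n = 4 arrays per group. The interval of Asns, -1.57 to -0.32, is the only one of the 11 sets that lies wholly to one side of 0, before any adjustment for the number of genes tested.

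No pair of members was shown to vary together over the 8 arrays. Among the 45 pairs of members, with Ddit3 taken by its brighter set, 0 had an unadjusted exact Pearson p under 0.05. The smallest p belonged to Eif2ak3 and Ppp1r15a, with Pearson r = 0.71 (exact permutation p = 0.0515, 0.828 adjusted over the 45 pairs) and Spearman rho = 0.36 (exact permutation p = 0.389). Both genes were highest on a3a6KO 1, and without that array and control 4 the r was 0.13. Atf4 and Trib3 followed with r = 0.70 (exact permutation p = 0.0537, adjusted 0.828) and rho = 0.40 (exact permutation p = 0.327). That relation rested on control 2 and 4, without which r was -0.10. Ern1 and Atf6 had the only Spearman p under 0.05 before adjustment, with rho = 0.75 (exact permutation p = 0.038, adjusted 0.922) and r = 0.53 (exact permutation p = 0.164, adjusted 0.828), or r = 0.55 without control 1 and 4. Ern1 and Xbp1 had r = 0.47 (exact permutation p = 0.239, adjusted 0.828) and rho = 0.43 (exact permutation p = 0.299), or 0.70 without control 1 and 4. Relative to group means, 3 members were compared with 1597 other genes above background on every array, leaving out Gm-numbered and Rik-named genes. Atf4 was closest over the 8 arrays to Anxa5, a phospholipid-binding annexin (r = 0.95), Sh3glb1, an endophilin (0.94), and Lbh (0.90). The brighter Ddit3 set was closest to the adhesion gene Ceacam1, the histone gene H3f3b and the autophagy gene Map1lc3b (each r = 0.91). Xbp1 was closest to the proteasome subunit gene Psmd12 (r = 0.93), Bsdc1 (0.91) and Ddt (0.90). These are the top values of a search and are given as a description.

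The wider pathway was followed in 11 lists with 139 measured genes, of which 0 passed the limma test over all genes (68 higher in a3a6KO and 71 lower, median difference -0.013). The 71 include a gene whose means were equal in both groups. Of the 139, 8 genes (5.76%) had an unadjusted p under 0.05, near the 5.13% of all genes, and the groups did not overlap in 4 (2.88%), near the 2.94% of all genes. Background was exceeded on every array by 57 of the 139 and on no array by 49. Over all genes, 1609 of 19505 exceeded it on every array.

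The machinery around eIF2 was lower in a3a6KO in 12 of 16 genes, 0 of them past the threshold, with a median difference of -0.145, or -0.024 without a3a6KO 3 and 4. Background was exceeded on every array by 3 of the 16 genes and on no array by 9. Ppp1r15b, the constitutive partner of Ppp1r15a in the eIF2 phosphatase, had log2 levels of 6.78, 7.36, 6.46 and 7.13 on the a3a6KO arrays 1 to 4, against 6.10, 6.43, 6.29 and 6.41 on the control arrays 1 to 4. Every a3a6KO array was above every control array, by a mean of 0.625 (SE 0.217, limma adjusted p = 0.944), near background. Its exact permutation p of 0.0286, the smallest possible, only restates this lack of overlap, which 2.94% of all genes showed. Impact, an inhibitor of the eIF2 kinase GCN2, differed by -1.33 (SE 0.383) and Dele1, which relays mitochondrial stress to the eIF2 kinase HRI, by 0.60 (SE 0.224). Impact exceeded background on 0 a3a6KO arrays and 1 control array, and Dele1 on 0 arrays. The eIF2 subunit gene Eif2s3x, above background on every array, differed by 0.42 (SE 0.217). The kinase genes Eif2ak1, Eif2ak2 and Eif2ak4 differed by -0.15, -0.21 and -0.33. Eif2ak1 and Eif2ak2 exceeded background on 0 arrays, and Eif2ak4 on 0 a3a6KO arrays and 1 control array.

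Among 14 other targets of Atf4 that act as transcription factors or stress effectors, 8 were lower in a3a6KO and 6 higher, 0 past the threshold, with a median of -0.23. The 4 of smallest p, Stc2, Nupr1, Atf3 and Gadd45a, were all lower. Nupr1, a small chromatin protein induced by stress, had log2 levels of 8.49, 9.29, 9.40 and 8.24 on the a3a6KO arrays 1 to 4, against 10.04, 9.48, 9.50 and 9.97 on the control arrays 1 to 4. Its groups did not overlap, although a3a6KO 2 and 3 lay close below control 2 and 3, and its ratio was 0.539 (95% interval 0.341 to 0.852, limma adjusted p = 0.944). The exact permutation p of 0.0286 for Nupr1 only restates the lack of overlap. Stc2, which encodes a secreted stanniocalcin, had 3.75, 3.91, 3.31 and 3.33 on the a3a6KO arrays, against 5.78, 5.09, 4.94 and 4.29 on the control arrays. Its groups did not overlap either (difference -1.45, SE 0.305, limma adjusted p = 0.844), but it exceeded background on 0 arrays. Atf3, a stress-induced repressor, had 10.19, 10.41, 9.64 and 9.95 on the a3a6KO arrays, against 10.62, 10.64, 10.41 and 10.30 on the control arrays. Only a3a6KO 2 reached the control range of Atf3, whose difference was -0.445 (SE 0.20) and -0.19 without a3a6KO 3 and 4. Gadd45a differed by -0.67 (SE 0.306). Sesn2 (0.42, or 0.67 without a3a6KO 3 and 4), Ddit4 (0.36), Cebpg (0.24) and Atf5 (0.16) had higher means in a3a6KO, none past the threshold. Sesn2 exceeded background on 0 arrays, and Ddit4 on 0 a3a6KO arrays and 1 control array.

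Immediate early genes, which tissue digestion can induce, were above background on every array in all 14 members. Of these, 9 were lower in a3a6KO and 0 passed (median -0.13). The median was 0.0067 without a3a6KO 3, 0.083 without a3a6KO 3 and 4, -0.043 without control 1 and -0.37 with the basal marker score as a covariate. Their score was -0.43 to 0.20 in a3a6KO and -0.25 to 0.33 in control, lowest on a3a6KO 3, the array on which Atf3 and Ppp1r15a were lowest too. With this score as a covariate the differences were -0.34 for Atf3, 0.060 for Ppp1r15a and -1.01 for Asns. Btg2, which blocks proliferation, had 9.40, 9.01, 8.37 and 9.25 on the a3a6KO arrays, against 9.85, 9.57, 9.57 and 9.44 on the control arrays, without overlap (difference -0.60, SE 0.237, limma adjusted p = 0.944).

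Genes for amino acid supply, the metabolic output of Atf4 to which Asns belongs, differed in both directions. In amino acid synthesis 7 of 9 genes were lower in a3a6KO (median -0.23), in transport 7 of 9 were higher (median 0.19), and among the aminoacyl-tRNA synthetases 8 of 11 were higher (median 0.045, mean -0.0064), with 0 past the threshold in each. Without a3a6KO 3 and 4 the medians of transport and of the synthetases were 0.12 and -0.10. The serine synthesis genes Phgdh and Psph differed by 0.83 (SE 0.399) and -0.75 (SE 0.55), and Psat1 by -0.27 (SE 0.772, or 0.69 without a3a6KO 3 and 4), all measured mostly below background. The transporter genes Slc7a11 (cystine) and Slc1a5 (glutamine) differed by 0.75 (SE 0.399) and 0.37 (SE 0.369, or 0.12 without a3a6KO 3 and 4). Slc7a11 exceeded background on 2 a3a6KO arrays and 0 control arrays, and Slc1a5 on 3 arrays of each group. The bright transporter genes Slc3a2, Slc7a5 and Slc38a2, above background on every array, differed by -0.013, 0.19 and 0.035. The synthetase genes Gars, Sars and Wars differed by 0.295, 0.18 and -0.465, or by 0.455, -0.015 and -0.27 without a3a6KO 3 and 4.

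ER chaperone and folding genes, the output of Atf6 and Xbp1, went in both directions around a median close to 0. Of 18 genes 11 were higher in a3a6KO, 0 passed and the median difference was 0.033, and the mean was -0.0047. Without a3a6KO 3 and 4 the median was -0.070. Hspa5 (BiP), the chief ER chaperone, had log2 levels of 10.27, 10.28, 10.14 and 10.05 on the a3a6KO arrays 1 to 4, against 10.24, 10.53, 9.65 and 10.20 on the control arrays 1 to 4. All a3a6KO values fell inside the control range, and the ratio was 1.02 (95% interval 0.742 to 1.40, limma adjusted p = 0.993). Without a3a6KO 3 and 4 the difference of Hspa5 was 0.12, that of Hsp90b1 -0.085 and that of Dnajb9 0.035. Hsp90b1 differed by -0.045 (SE 0.19), the lectin chaperone genes Calr and Canx by 0.033 and 0.038, and Dnajb9, a known Xbp1 target, by 0.063 (SE 0.218). Hyou1, a large chaperone of the ER, differed by -0.998 (SE 0.44), with 5.28, 4.24, 6.03 and 4.98 on the a3a6KO arrays, against 6.03, 6.71, 5.13 and 6.65 on the control arrays. It exceeded background on 0 a3a6KO arrays and 2 control arrays, and its difference was -0.25 with the basal marker score as a covariate. The isomerase gene Fkbp11 and the disulfide isomerase gene P4hb differed by 0.345 and 0.27, or by 0.090 and 0.015 without a3a6KO 3 and 4. Creld2, a stress-induced ER protein gene, differed by -0.245, or by -0.645 without a3a6KO 3 and 4.

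ER-associated degradation, which clears misfolded protein, was higher in a3a6KO in 8 of 14 genes (median 0.09), with Faf2 at 0.585 (SE 0.354), Derl2 at 0.48 (SE 0.344) and Herpud1 at -0.64 (SE 0.518). These values moved with single arrays. Herpud1 spanned -1.07 without a3a6KO 4 to -0.33 without a3a6KO 2, with -1.54 (SE 0.379) without a3a6KO 3 and 4. Derl2 was at 0.16 without a3a6KO 2, and Faf2 was at 0.92 without control 3. Herpud1 exceeded background on 1 a3a6KO array and 2 control arrays, and Derl2 on 2 a3a6KO arrays and 0 control arrays. With the basal marker score as a covariate Herpud1 was at -0.31, Derl2 at 0.30 and Faf2 at 0.25. Translocation into the ER was lower in 11 of 16 genes (median -0.058), of which 13 exceeded background on every array, with Srpr at -0.38 (SE 0.233) and Ssr3 at 0.395 (SE 0.235). Without a3a6KO 3 and 4 its median was -0.16 and Ssr3 was at 0.24. Related sensors and processing factors were higher in 8 of 12 genes (median 0.068), with Atf6b, the paralogue of Atf6, at 0.555 (SE 0.404) and Mbtps1, the protease that first cuts Atf6, at 0.35 (SE 0.268). The median was 0.15 without a3a6KO 3 and 4, and Atf6b was at 0.28 without a3a6KO 1, at 0.33 without control 1 and at 0.87 without a3a6KO 4. Of 7 apoptosis genes linked to Ddit3, 4 were higher (median 0.205). The 4 include Bcl2 (0.21, or 0.46 without a3a6KO 3 and 4), which opposes apoptosis, so the list median mixes genes of opposed action. Casp12, an ER-associated caspase, differed by 0.995 (SE 0.355) and the death gene Bbc3 by 0.205 (SE 0.354). Without a3a6KO 3 and 4 the median was 0.083, Casp12 differed by 1.5 (SE 0.358) and Bbc3 by 0.083. Casp12 exceeded background on 0 arrays. In each of these 4 lists 0 genes passed the limma test.

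**Figure D3:**
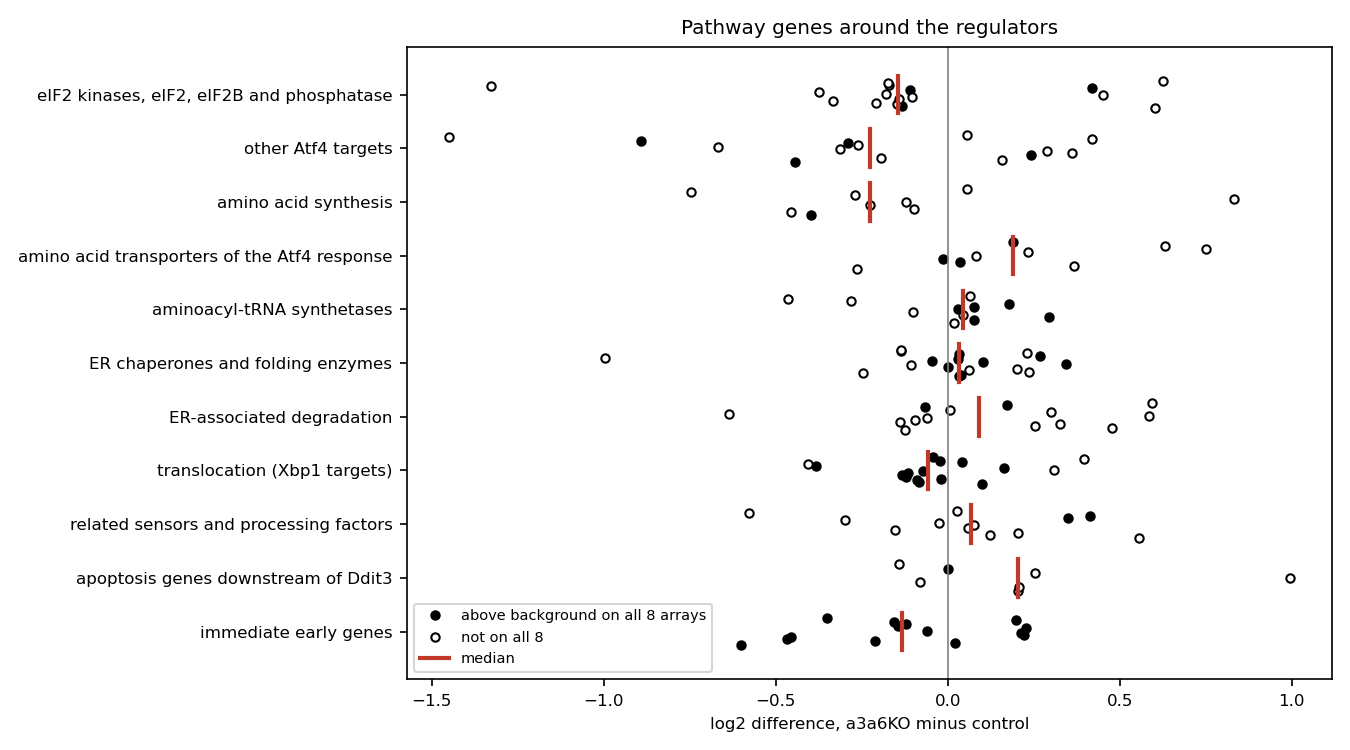
Log2 difference of a3a6KO minus control (horizontal axis) for each measured gene of the 11 pathway lists (rows), with n = 4 arrays per group. Filled points exceeded background on all 8 arrays, open points did not, and red lines are list medians. The medians run from -0.23, for both other Atf4 targets and amino acid synthesis, to 0.205 for apoptosis genes.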

How the data were processed

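Expression was measured on Affymetrix arrays in 8 samples, 4 a3a6KO and 4 control. The deposited log2 values were made by the authors with Affymetrix Expression Console and RMA, per the submitters' processing notes, with versions and genome build not given in the sources used here. RMA equalizes the arrays by quantiles, which removes any shift shared by most genes. GEO's annotation of the platform named the genes (19572 of 28846 sets, 19505 genes). The values were tested as deposited, with no filter, in limma 3.58.1 (R 4.3.3), a linear model with moderated variance and no covariate, two-sided. The fit was tested on simulated data. Depth has no counterpart on arrays, and their number limits the precision. The labels call the samples biological replicates. Relations used exact pairings in numpy 2.4.6.

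The members, lists, motifs and tests were chosen with earlier results of these data known. Genes named are the members, up to 4 of smallest p in each list, a few preset stress genes (Hspa5, Hsp90b1, Atf3, Psat1, Sesn2, Dnajb9 and Herpud1) and the closest genes to Atf4, Ddit3 and Xbp1. Others, named for their role after their values were seen, are Eif2ak1, Eif2ak2, Eif2ak4, Ddit4, Cebpg, Atf5, Slc3a2, Slc7a5, Slc38a2, Calr and Canx. Of 149 pathway symbols fixed, 139 were measured, and 3 symbols were updated through RefSeq synonyms. Same-numbered arrays did not deviate together (correlations of -0.069 to 0.088 over 1609 genes). Alternatives were other probe set rules, scalings, variance models, covariates, a replicate block and arrays left out.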

Additional observations from a re-analysis of the deposited data

Results flagged for a closer look

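Among 122 groups of 4 arrays examined (61 named genes), 4 held 1 array far from the other 3, where chance gives about 1 in 20, and none of the 4 was in a member. The log2 level of the synthetase gene Wars was 4.61 on a3a6KO 1 and 3.82 to 3.91 on the other a3a6KO arrays, all below background. Fkbp11, an ER prolyl isomerase gene, was at 8.59 on control 4 and at 7.74 to 7.87 on the other controls. Atf6b was at 6.48 on control 1 and at 7.32 to 7.46 on the other controls. The immediate early gene Zfp36 was at 10.19 on a3a6KO 3 and at 10.71 to 10.80 on the other a3a6KO arrays.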

How the results depend on the processing

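Across 19 alternatives, 2 of them added after seeing the data (without a3a6KO 3 and 4, and the second Ddit3 set), limma called 0 genes, with 165 to 1128 genes at an unadjusted p under 0.05, and adjusted p-values of members stayed at 0.768 to 0.999. Asns and Xbp1 were lower in a3a6KO under each. With dim genes left out, 2774 genes and 5 members remained. With the replicate block Asns differed by -0.94 (adjusted p = 0.942), and the block changed no call. The numbers mark no known pairing. Direction turned under the basal score covariate for Atf4 (0.045), Trib3 (0.057), Chac1 (0.014), Bbc3 (-0.14), Creld2 (0.25) and Hsp90b1 (0.045), under median centring for Chac1 (0.023), under repeated quantiles for Chac1 (0.024), and under the immediate early covariate for Ppp1r15a (0.060), Dnajb9 (-0.030) and Psat1 (0.029). Without a3a6KO 3 and 4 it turned for Atf6 (-0.12), Ppp1r15a (0.25), Psat1 (0.69), Sars (-0.015) and Spcs3 (-0.41). Leaving out single arrays spanned -0.027 to 0.91 for Atf6, -0.22 to 0.11 for Chac1, -0.29 to 0.069 for Ddit3, -0.20 to 0.53 for Eif2ak3, -0.33 to 0.081 for Ern1, -0.24 to 0.084 for Ppp1r15a, -0.15 to 0.48 for Bbc3, -0.079 to 0.48 for Bcl2, -0.058 to 0.45 for Dapk3, -0.070 to 0.19 for Dnajb9, -0.14 to 0.047 for Hsp90b1, -0.14 to 0.155 for Hspa5 and -0.83 to 0.32 for Psat1. It spanned, for list medians, -0.089 to 0.13 for synthetases, -0.058 to 0.30 for apoptosis genes, -0.24 to 0.052 for the eIF2 list, -0.29 to -0.078 for the member factors and -0.23 to -0.058 for other Atf4 targets. Medians moved to -0.081 (immediate early covariate) and -0.10 (without a3a6KO 3 and 4) for synthetases and to -0.40 for the member factors with the second Ddit3 set or the mean of its sets. For other Atf4 targets the median was -0.049 with the basal covariate and -0.37 with dim genes left out, where it was -0.49 for the Atf4-linked members and 0.38 for related sensors, by construction over fewer genes. The other causes were not tested. Signal near background limits the sensors, Trib3, Chac1 and the second Ddit3 set.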
